A study of Mus musculus with 41 samples.

Results

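The p53 pathway was described here through 35 genes, which comprise p53 itself (Trp53), its regulators and its known targets other than inhibitors of cyclin-dependent kinases and genes of the BCL2 family. They were chosen by gene symbol from the 55453 genes listed in each of 3 deposited tables, and all 35 were listed in all 3. The tables compare myeloid cells of irradiated with untreated tumours, grown in the rectum of C57BL6 female mice from MC38-luc cells, a mouse colon carcinoma line with a luciferase gene. Irradiated tumours received 5 Gy on each of 5 days (days 9 to 13 after implantation), untreated tumours received none, and all were taken on day 14, so irradiated cells were collected on the day after the last fraction. Tumour-associated macrophages (TAM; CD45+ CD11b+ Ly6C- Ly6G- F4/80+) came from 5 untreated and 10 irradiated tumours, inflammatory monocytes (CD45+ CD11b+ Ly6C+ Ly6G-) from 5 and 9, and granulocytes (CD45+ CD11b+ Ly6C+ Ly6G+) from 5 and 7. The 41 libraries carry 15 tumour numbers, with the same 5 untreated tumours behind every subset. The 3 comparisons thus share tumours, while each contrasts libraries of its own subset. Untreated and irradiated libraries never share a number.

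Each table holds the authors' summary of a comparison: a mean normalised count over libraries, a log2 fold change of irradiated over untreated, a Wald statistic (the effect in units of its standard error), its p-value, and that p after adjustment for all genes. No value per tumour can be shown because single libraries were not analysed here. For the same reason the depth of each library is unknown, and the only error given is that within the Wald statistic. The mean count is 1 value for all libraries of all subsets and does not give the level in any subset, so the gates could not be checked by the level of their markers. Such an equal mean would point to a joint fit of all subsets, where libraries of 1 subset also shape the errors of the others. Whether such a fit was made is not stated. A gene is said here to have risen or fallen in irradiated tumours where its adjusted p is under 0.05, with the sign of the Wald statistic as its direction. In these sorted bulk populations, more RNA of a gene per cell and more cells that express it cannot be told apart.

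The transcription factor p53 is kept scarce in unstressed cells by Mdm2, a ubiquitin ligase that marks it for degradation, and by Mdm4, a related protein that blocks its activity. DNA breaks, such as those made by ionising radiation, set off kinases that release p53 from this control. The p53 protein then binds sites in its target genes and switches on genes of cell cycle arrest, DNA repair, metabolism and cell death, and also Mdm2, which closes a negative feedback loop. Much of this control acts on the p53 protein, so the Trp53 transcript need not follow the activity of the pathway.

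p53 binds DNA as a tetramer on a pair of decamers, each made of 3 purines, C, 2 bases that are A or T, G and 3 pyrimidines. The decamer reads the same on both strands, so searching 1 strand covers both. Of the 35 genes, 28 have a promoter in RefSeq's table for the build GRCm38.p6, taken from 250 bases before to 50 bases after the start site. An exact decamer was found in 10 of these 28 (35.7%), against 9.55% of the 27025 genes in the table. A decamer pair at most 1 base apart with at most 3 mismatches in all, which can contain an exact decamer, was found in 6 of 28 (21.4%), against 3.27% of all genes. The 7 genes without a promoter in the table are Ddb2, Perp, Rrm2b, Tnfrsf10b, Trp53inp1, Xpc and Zmat3. A match is a description of the letters in this window and shows no binding, and the genes were listed as known targets, so the share is not independent of how they were chosen.

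The promoters of 4 genes that carry an exact decamer are shown 5′ to 3′ on the strand of the gene, from RefSeq on GRCm38.p6, which is not the build of the deposited tables. Capitals mark the matches to the decamer or the decamer pair. Ccng1 is shown for its decamer pair with 1 mismatch, the fewest among these 28 genes, and Mdm2 as the feedback regulator. Aen and Ei24 are examples of genes that rose in granulocytes as well as TAM, as Ccng1 and Abhd4 also did.
Ccng1 (chr11:40755237-40755536, minus strand): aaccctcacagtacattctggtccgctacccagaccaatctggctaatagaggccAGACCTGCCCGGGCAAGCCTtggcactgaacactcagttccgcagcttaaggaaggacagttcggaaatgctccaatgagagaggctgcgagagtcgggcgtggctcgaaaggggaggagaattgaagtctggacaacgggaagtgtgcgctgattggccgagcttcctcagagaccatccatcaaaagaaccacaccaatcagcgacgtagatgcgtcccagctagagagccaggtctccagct
Mdm2 (chr10:117710709-117711008, minus strand): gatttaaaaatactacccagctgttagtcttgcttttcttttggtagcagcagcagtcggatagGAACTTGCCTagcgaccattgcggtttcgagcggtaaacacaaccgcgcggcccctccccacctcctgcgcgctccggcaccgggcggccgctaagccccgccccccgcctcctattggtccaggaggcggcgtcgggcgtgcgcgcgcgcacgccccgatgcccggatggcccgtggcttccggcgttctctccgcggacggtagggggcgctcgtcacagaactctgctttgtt
Aen (chr7:78895808-78896107, plus strand): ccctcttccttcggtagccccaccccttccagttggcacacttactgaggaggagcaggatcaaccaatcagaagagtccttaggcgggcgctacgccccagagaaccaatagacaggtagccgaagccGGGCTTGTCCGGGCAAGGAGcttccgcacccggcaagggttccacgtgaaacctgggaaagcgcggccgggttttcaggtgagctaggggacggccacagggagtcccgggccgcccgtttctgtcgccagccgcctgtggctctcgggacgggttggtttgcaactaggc
Ei24 (chr9:36797285-36797584, minus strand): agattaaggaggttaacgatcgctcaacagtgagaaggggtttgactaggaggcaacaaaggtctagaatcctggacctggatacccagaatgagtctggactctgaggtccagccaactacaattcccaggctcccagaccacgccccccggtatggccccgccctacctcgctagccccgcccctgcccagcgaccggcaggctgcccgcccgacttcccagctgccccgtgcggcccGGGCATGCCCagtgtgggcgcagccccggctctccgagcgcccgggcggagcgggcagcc
The exact decamers in the other promoters are shown to let their letters be compared.
Gadd45a: GGGCTAGCCC
Ppm1d: GAGCTTGCTC
Polk: GAACTAGCCT
Abhd4: GGGCTTGTTT
Sesn1: AAGCTTGTTT
Trp53: GGACTTGCCC
The decamer of Ei24 ends at the base before the start site, that of Gadd45a begins 40 bases before it, and that of Ccng1 begins 185 bases before it. Aen is listed with 2 start sites, and both windows hold the same decamer pair.

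**Figure D1:**
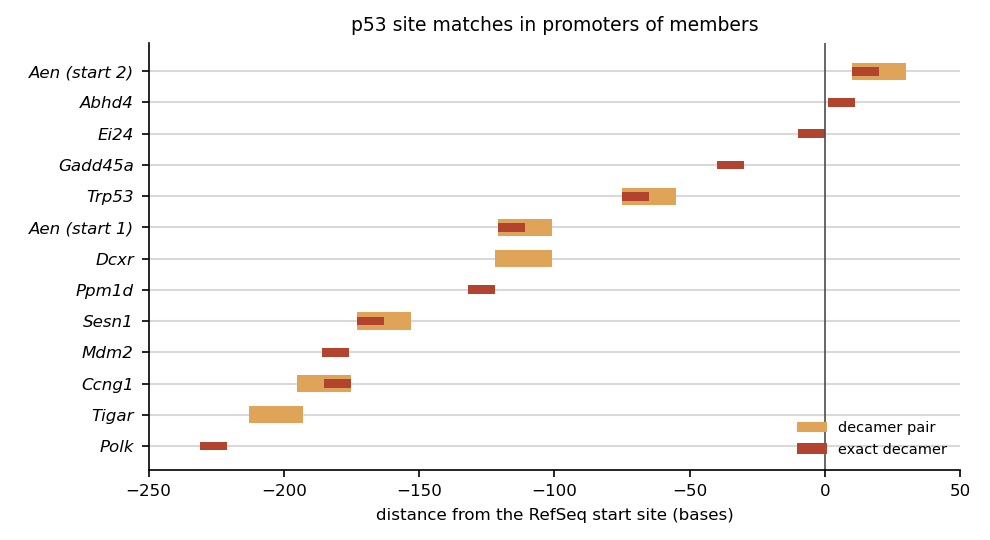
Position of p53 site matches in promoters of members, as distance in bases from the RefSeq start site. Dark bars are exact decamers and light bars decamer pairs with at most 3 mismatches, and matches lie between positions -231 (Polk) and 29 (Aen, at 1 of its 2 start sites).

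In TAM, 25 of the 35 genes rose and 2 fell, where 13.9% of all 16851 genes tested rose and 12.5% fell (26.4% either way). In inflammatory monocytes 8 rose and none fell, where 4.13% of 14506 genes rose and 1.77% fell (5.9% either way). In granulocytes 10 rose and 3 fell, where 7.32% of 15679 genes rose and 9.9% fell (17.2% either way). The 8.57% of members that fell in granulocytes is near the share of all genes, and the 5.71% that fell in TAM is under it. The authors' DESeq2 p without adjustment was under 0.05 for 26 higher and 2 lower members in TAM, where 19.4% and 17.3% of all genes tested were. It was under 0.05 for 16 higher and 2 lower members in inflammatory monocytes (11.9% and 7.75% of all genes), so the lower count there is near that of all genes. For granulocytes these counts were 12 and 3 (13.2% and 16.7% of all genes). The median log2 fold change of the 35 genes was 0.91 for TAM, 0.49 for inflammatory monocytes and 0.34 for granulocytes, beside 0.03, 0.02 and -0.03 over all genes tested. With Wald statistics rescaled by the robust SD of each table, 4 members remained higher in TAM (Mdm2, Trp53inp1, Ccng1 and Phlda3), 1 in inflammatory monocytes (Phlda3) and none in granulocytes. Of all genes tested, 44 of 16851 remained higher in TAM, 27 of 14506 in inflammatory monocytes and 8 of 15679 in granulocytes. All 35 had an adjusted p-value in each table, so no member was lost to the filter on low counts. The 5 genes that rose in all 3 subsets were Ccng1, Phlda3, Ephx1, Dcxr and Ei24. The 7 that passed in none were Sesn3, Tigar, Rrm2b, Ddb2, Tnfrsf10b, Eda2r and Pidd1.

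**Figure D2:**
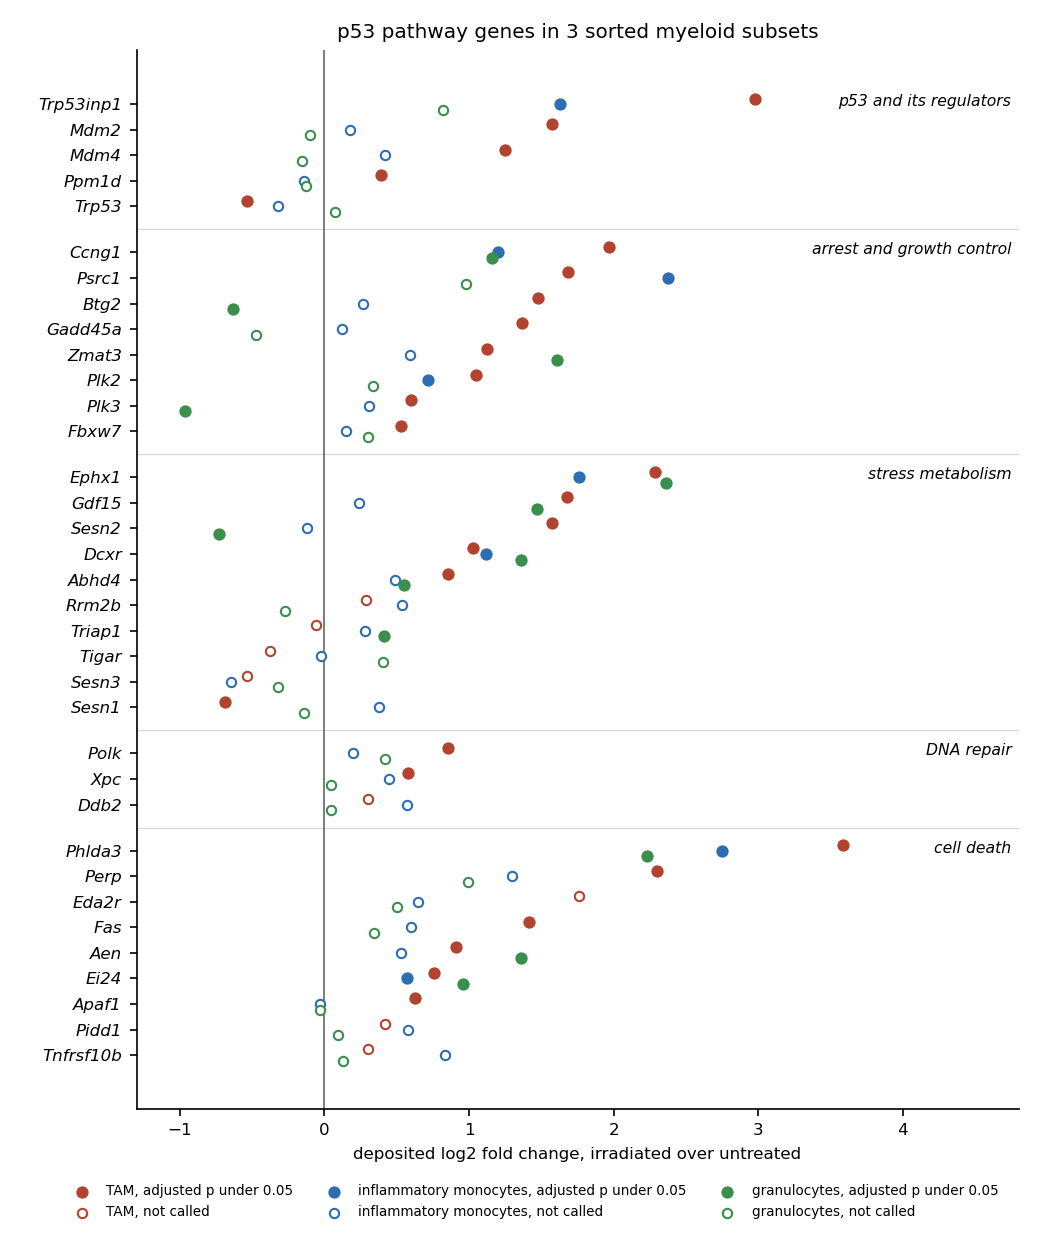
Deposited log2 fold change of each member, irradiated over untreated, in TAM, inflammatory monocytes and granulocytes, grouped by role and ordered by the fold in TAM. Filled points have an adjusted p under 0.05: 25 TAM points are filled to the right of 0, and 3 granulocyte points (Plk3, Sesn2 and Btg2) are filled to its left.

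**Figure D3:**
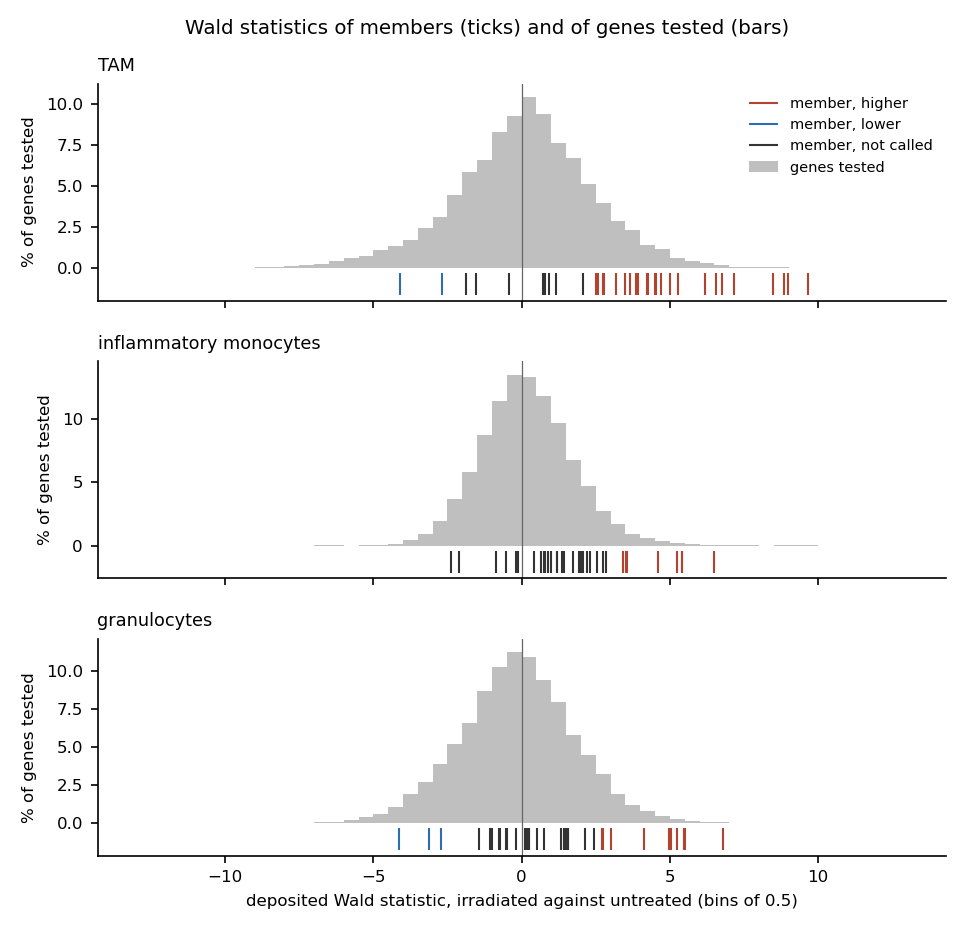
Deposited Wald statistics of the members (ticks) below those of all genes tested (grey bars, percent of genes per bin of 0.5). In TAM the member ticks reach from -4.09 (Trp53) to 9.66 (Trp53inp1), and in granulocytes from -4.14 (Plk3) to 6.80 (Aen), while in inflammatory monocytes Phlda3 is highest and Trp53 lowest (-2.37).

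Among p53 and its regulators, the inhibitors rose in TAM and the Trp53 transcript itself fell. The log2 fold change of Trp53 was -0.54 for TAM, -0.32 for inflammatory monocytes and 0.07 for granulocytes in the authors' deposited tables. Only the first passed the test in the authors' deposited table (adjusted p = 0.00047, Wald statistic -4.09), where the untreated level was 1.45 times the irradiated. Mdm2 rose 2.98-fold in TAM in the authors' deposited table, a log2 fold change of 1.58 with a Wald statistic of 8.85 (adjusted p = 5.0e-16). The same gene had 0.18 in inflammatory monocytes (adjusted p = 0.64) and -0.10 in granulocytes (adjusted p = 0.78) in the authors' deposited tables, so the feedback gene passed the test in TAM and in neither other subset.

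Mdm4, the partner of Mdm2, followed the same order in the authors' deposited tables, with 1.25 in TAM (adjusted p = 3.6e-08), 0.42 in inflammatory monocytes (adjusted p = 0.23) and -0.15 in granulocytes (adjusted p = 0.69). Ppm1d, which encodes the phosphatase WIP1 that switches off damage signalling, passed in TAM by a small margin in the authors' deposited table (0.39, adjusted p = 0.046). Trp53inp1, a target whose protein promotes p53 activity and autophagy, ranked 14th by p among all genes tested in TAM. It rose 7.87-fold in TAM (log2 fold change 2.98, adjusted p = 5.6e-19) and 3.09-fold in inflammatory monocytes (1.63, adjusted p = 4.1e-05) in the authors' deposited tables. In granulocytes its fold of 0.82 missed the threshold (adjusted p = 0.073 in the authors' deposited table).

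All 8 genes of arrest and growth control rose in TAM, 3 of them rose in inflammatory monocytes, and in granulocytes 2 rose and 2 fell. Of all genes tested, 13.9% rose in TAM and 4.13% in inflammatory monocytes, and in granulocytes 7.32% rose and 9.9% fell. Ccng1, which encodes cyclin G1, rose in all 3 subsets. Its fold was 3.90 in TAM (log2 fold change 1.97, adjusted p = 1.8e-16), 2.30 in inflammatory monocytes (1.20, adjusted p = 1.9e-05) and 2.23 in granulocytes (1.16, adjusted p = 4.1e-05) in the authors' deposited tables. Psrc1, a microtubule-binding protein gene, had its highest fold in inflammatory monocytes (2.38, adjusted p = 1.9e-05), beside 1.69 in TAM (adjusted p = 0.0011) and 0.98 in granulocytes (adjusted p = 0.12) in the authors' deposited tables. Plk2, a polo-like kinase gene, rose in TAM (1.05, adjusted p = 3.4e-06) and inflammatory monocytes (0.71, adjusted p = 0.013) in the authors' deposited tables.

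Zmat3, an RNA-binding protein gene of p53-dependent tumour suppression, rose in granulocytes (1.61, adjusted p = 5.0e-06) and in TAM (1.12, adjusted p = 0.00010) in the authors' deposited tables. In inflammatory monocytes its fold was 0.59 (adjusted p = 0.16 in the authors' deposited table). Btg2, an antiproliferative regulator of mRNA decay, and Plk3, a stress-responsive polo-like kinase, rose in TAM and fell in granulocytes. Btg2 rose in TAM (1.48, adjusted p = 1.1e-09) and fell in granulocytes (-0.63, adjusted p = 0.040) in the authors' deposited tables. Plk3 rose by 0.60 in TAM (adjusted p = 0.025) and fell in granulocytes to 0.513 of the untreated level (-0.96, adjusted p = 0.00089) in the authors' deposited tables. Gadd45a, a damage-inducible gene of arrest and repair, rose in TAM (1.36, adjusted p = 0.00028) and had -0.47 in granulocytes (adjusted p = 0.35) in the authors' deposited tables. Fbxw7, a ubiquitin ligase subunit that degrades cyclin E and Myc, rose in TAM (0.53, adjusted p = 0.026 in the authors' deposited table).

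In the group of metabolism and stress defence, members of the same family moved differently. The sestrins restrain mTORC1 signalling and limit oxidative damage, and 3 genes encode them. Sesn2 rose 2.98-fold in TAM (1.58, Wald statistic 7.17, adjusted p = 9.3e-11) and fell in granulocytes (-0.73, adjusted p = 0.017) in the authors' deposited tables. Sesn1 fell in TAM (-0.69, adjusted p = 0.032), and Sesn3 had -0.54 there (adjusted p = 0.16), in the authors' deposited table. Neither Sesn1 nor Sesn3 passed in inflammatory monocytes (0.38 and -0.65) or in granulocytes (-0.14 and -0.32) in the authors' deposited tables.

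Ephx1, which encodes microsomal epoxide hydrolase, rose in all subsets, with 2.28 in TAM (adjusted p = 0.00094), 1.76 in inflammatory monocytes (adjusted p = 0.019) and 2.37 in granulocytes (adjusted p = 0.00095) in the authors' deposited tables. Dcxr, a dicarbonyl and xylulose reductase gene, did so too, at 1.03 (adjusted p = 0.00025), 1.12 (adjusted p = 0.00049) and 1.36 (adjusted p = 1.4e-05) in the authors' deposited tables. Gdf15, a stress-induced cytokine gene, rose in TAM (1.68, adjusted p = 0.0022) and granulocytes (1.47, adjusted p = 0.021), with 0.24 in inflammatory monocytes (adjusted p = 0.79), in the authors' deposited tables. Abhd4, a lipid hydrolase gene, rose in TAM (0.85, adjusted p = 9.0e-05) and granulocytes (0.55, adjusted p = 0.041) in the authors' deposited tables. Triap1, a small mitochondrial survival factor gene, rose in granulocytes (0.41, adjusted p = 0.041) and had -0.06 in TAM (adjusted p = 0.81) in the authors' deposited tables. Tigar, which redirects glucose to the pentose phosphate pathway, and Rrm2b, which encodes the p53-inducible subunit of ribonucleotide reductase, passed in no subset. Their folds ran from -0.38 to 0.41 for Tigar and from -0.28 to 0.53 for Rrm2b in the authors' deposited tables.

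Of the 3 DNA repair genes, 2 rose in TAM (as did 13.9% of all genes tested) and none passed in the other subsets. Polk, which encodes a translesion polymerase, rose in TAM (0.86, adjusted p = 0.0035), and so did Xpc, a damage sensor gene of nucleotide excision repair (0.58, adjusted p = 0.039), in the authors' deposited table. Ddb2, the other damage sensor gene of that pathway, passed in no subset, with folds from 0.04 to 0.57 in the authors' deposited tables.

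Of 9 genes of cell death, 6 rose in TAM, 3 in granulocytes and 2 in inflammatory monocytes, and none fell. The shares of all genes tested that rose were 13.9%, 7.32% and 4.13% in the same order. Phlda3, which restrains AKT by competing for membrane lipids, had the highest fold of all members in TAM and in inflammatory monocytes. It rose 12.0-fold in TAM (log2 fold change 3.59, Wald statistic 8.49, adjusted p = 7.1e-15), 6.71-fold in inflammatory monocytes (2.75, adjusted p = 5.2e-08) and 4.69-fold in granulocytes (2.23, adjusted p = 3.1e-05) in the authors' deposited tables. Fas, the death receptor gene, rose in TAM (1.41, adjusted p = 4.4e-09) and had 0.60 in inflammatory monocytes (adjusted p = 0.077) and 0.34 in granulocytes (adjusted p = 0.36) in the authors' deposited tables. Perp, a desmosome and cell death gene, rose in TAM (2.30, adjusted p = 0.0091 in the authors' deposited table), with the second lowest mean count among members. Apaf1, the scaffold of the apoptosome, rose in TAM (0.63, adjusted p = 0.00090) and had -0.03 in both other subsets in the authors' deposited tables.

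Aen, an exonuclease gene, had the smallest p of all members in granulocytes and ranked 26th of all genes tested there. Its fold was 1.36 in granulocytes (Wald statistic 6.80, adjusted p = 6.3e-09), 0.91 in TAM (adjusted p = 1.3e-05) and 0.53 in inflammatory monocytes (adjusted p = 0.066) in the authors' deposited tables. Ei24, an endoplasmic reticulum protein gene of autophagy, rose in all subsets, by 0.76 in TAM (adjusted p = 4.4e-05), 0.57 in inflammatory monocytes (adjusted p = 0.015) and 0.96 in granulocytes (adjusted p = 4.1e-06) in the authors' deposited tables. The receptor genes Eda2r and Tnfrsf10b and the death-domain gene Pidd1 passed in no subset. Eda2r had 1.76 in TAM at a mean count of 7.95 (adjusted p = 0.11 in the authors' deposited table), the lowest mean count of any member.

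All 10 genes with an exact promoter decamer passed the test in TAM, 8 of them higher and 2, Trp53 and Sesn1, lower. Over all 967 tested genes with such a decamer, 16.5% rose and 12.5% fell in TAM, close to the 15% and 14.4% of the 10408 tested genes whose promoters held none. Of the 18 members whose promoters held none, 13 rose and 5 did not pass in TAM. In inflammatory monocytes 2 of the 10 and 5 of the 18 rose, and none fell. Of all genes tested there, 5.11% with a decamer and 4.28% without one rose, and 1.59% and 1.95% fell. In granulocytes 4 of the 10 rose, and of the 18 without one 5 rose and 3 fell, where 9.73% of all tested genes with a decamer and 7.94% of those without rose, and 9.62% and 10.9% fell. Phlda3, with the highest fold in TAM, was among the 18 without an exact decamer in this window.

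The comparison between subsets asked which of these responses differed from one cell population to another. For genes whose mean count reached 200, the fold divided by its Wald statistic was nearly the same in the 3 tables. It was used as the standard error of a fold, and the difference of 2 folds was tested with it over all genes that allowed it. Near equality does not show that it is a valid standard error, because folds may be shrunken and the subsets may share a fit. Effects differed between TAM and granulocytes for 10 of 33 members that could be tested, where 13.2% of 12669 genes differed. The effect was higher in TAM for 9 of them (8.98% of all genes), namely Sesn2, Btg2, Mdm2, Plk3, Mdm4, Trp53inp1, Gadd45a, Fas and Apaf1, and lower in TAM for Trp53 (4.21% of all genes). The differences on the log2 scale were 2.30 for Sesn2 (SE 0.32, adjusted p = 5.2e-10), 2.11 for Btg2 (SE 0.32, adjusted p = 1.2e-08) and 1.67 for Mdm2 (SE 0.26, adjusted p = 2.4e-08), each by the z test on these standard errors across genes. For Trp53inp1 the difference was 2.16 (SE 0.46, adjusted p = 0.00011), and for Plk3 1.56 (SE 0.32, adjusted p = 4.9e-05). For Trp53 it was -0.61 (SE 0.19, adjusted p = 0.018).

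TAM and inflammatory monocytes differed for 7 of 34 members, where 8% of 12197 genes differed, 4.16% with the higher effect in TAM and 3.85% with the higher effect in inflammatory monocytes. Sesn2 (1.70, SE 0.32, adjusted p = 4.4e-05), Mdm2 (1.40, SE 0.25, adjusted p = 1.7e-05), Btg2, Trp53inp1, Gadd45a and Apaf1 had the higher effect in TAM, and Sesn1 the lower (-1.06, SE 0.37, adjusted p = 0.049). Mdm4 missed the threshold for that pair (0.83, SE 0.29, adjusted p = 0.051) and passed it under both alternatives tried for this test. Inflammatory monocytes and granulocytes differed for 1 of 31 members, Plk3 (1.27, SE 0.32, adjusted p = 0.015), where 1.37% of 12244 genes differed and 1.07% had the higher effect in inflammatory monocytes. For Dcxr no difference was detected between TAM and granulocytes (-0.33, SE 0.35, adjusted p = 0.61), nor for Ephx1 (-0.08, SE 0.82, adjusted p = 0.97), whose standard error leaves room for a large one. For Aen and Zmat3, whose folds were higher in granulocytes than in TAM, the differences of -0.45 (SE 0.27, adjusted p = 0.29) and -0.48 (SE 0.39, adjusted p = 0.46) did not pass.

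A stricter test asked whether a gene rose in 1 subset and fell in another, for which the less extreme p of the pair was used when the signs of the effects were opposite. No member passed it in any pair of subsets after adjustment over all genes, and 15 of 15679 genes (0.0957%) did between TAM and granulocytes. Without adjustment Sesn2, Btg2 and Plk3 were under 0.05 between TAM and granulocytes (0.0018, 0.0063 and 0.0056), as were 3.12% of all genes. No member was in the pair of TAM and inflammatory monocytes (0.91% of all genes) or of inflammatory monocytes and granulocytes (0.455%). These standard errors treat the subsets as independent although they were sorted from the same tumours.

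**Figure D4:**
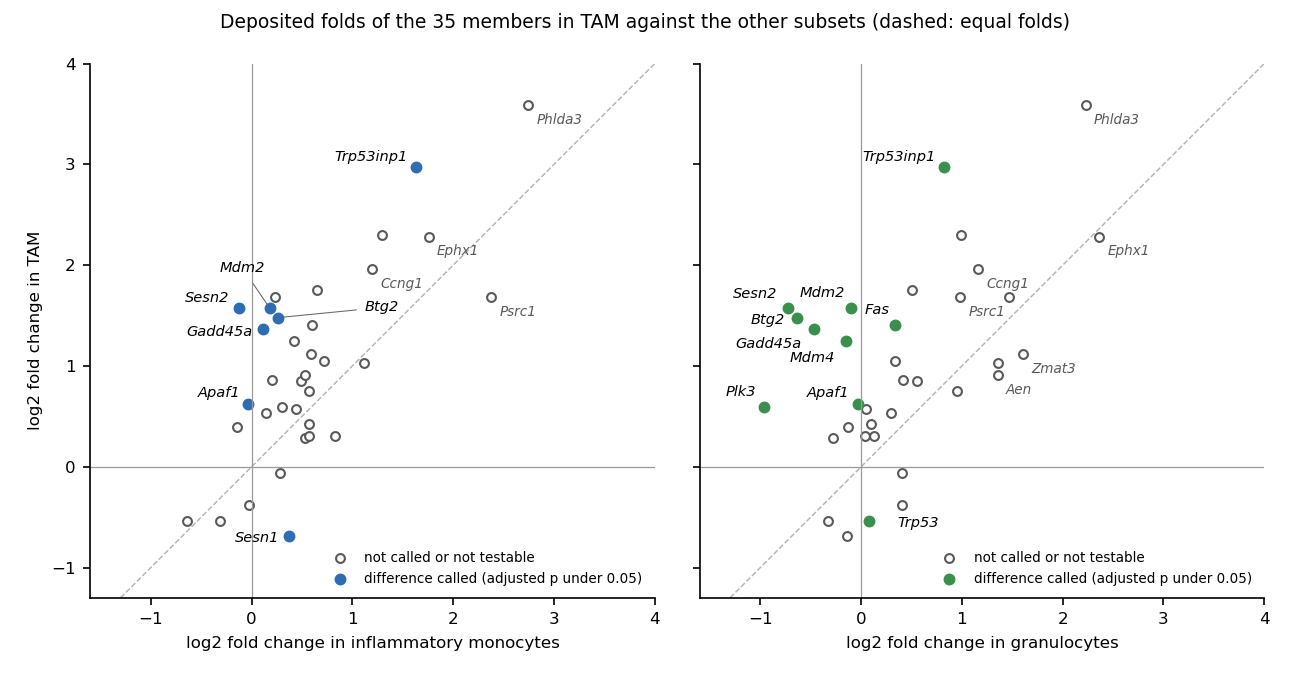
Deposited log2 fold change of the 35 members in TAM (vertical axis) against inflammatory monocytes (left) and granulocytes (right), each point 1 gene. Filled points passed the test of the difference: 7 in the left panel and 10 in the right, where Sesn2, Btg2 and Plk3 lie above 0 in TAM and below 0 in granulocytes.

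Other genes of the pathway were followed through lists of target genes, upstream kinases, cofactors and turnover factors, described by counts beside all genes. Of 43 tested further target genes, 16 rose and 4 fell in TAM, 2 rose and none fell in inflammatory monocytes, and 7 rose and 4 fell in granulocytes. As shares these are 37.2% and 9.3% in TAM, against 13.9% and 12.5% of all genes. In inflammatory monocytes the 4.65% that rose is near the 4.13% of all genes. In granulocytes 16.3% rose, against 7.32% of all genes, and the 9.3% that fell is near the 9.9% of all genes. Their median log2 fold change was 0.30, 0.13 and 0.08, against 0.91, 0.49 and 0.34 for the 35 members. Cdkn1a, which encodes the cyclin-dependent kinase inhibitor p21, had 2.38 in TAM (adjusted p = 5.7e-20), 0.36 in inflammatory monocytes (adjusted p = 0.44) and -0.30 in granulocytes (adjusted p = 0.46) in the authors' deposited tables. Ier5, an immediate early gene, also rose in TAM (1.43, adjusted p = 5.0e-14) and had 0.27 in inflammatory monocytes (adjusted p = 0.42) and -0.36 in granulocytes (adjusted p = 0.16) in the authors' deposited tables. Bbc3, which encodes the death protein PUMA, rose in all subsets, with 2.01 in TAM (adjusted p = 2.3e-10), 1.34 in inflammatory monocytes (adjusted p = 0.00046) and 1.18 in granulocytes (adjusted p = 0.0022) in the authors' deposited tables. Btg1, the paralogue of Btg2, also rose in TAM (1.42, adjusted p = 1.8e-09) and fell in granulocytes (-0.65, adjusted p = 0.029) in the authors' deposited tables.

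In granulocytes Tnfaip8 (0.43, adjusted p = 0.0011) and Bax (0.59, adjusted p = 0.0074) rose and Cdip1 fell (-0.54, adjusted p = 0.0029) in the authors' deposited table. Tnfaip8 rose in inflammatory monocytes too (0.37, adjusted p = 0.0087 in the authors' deposited table). Bax rose in TAM as well (0.87, adjusted p = 1.5e-06) and had 0.475 in inflammatory monocytes (adjusted p = 0.055) in the authors' deposited tables.

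Of 13 upstream kinases and damage sensors, 3 rose and 4 fell in TAM (23.1% and 30.8%, against 13.9% and 12.5% of all genes). Dyrk2 alone passed in inflammatory monocytes and in granulocytes (7.69% of the list in each, where 4.13% and 7.32% of all genes rose). Dyrk2, a kinase that phosphorylates p53, rose in all subsets, by 0.60 in TAM (adjusted p = 3.2e-05), 0.41 in inflammatory monocytes (adjusted p = 0.035) and 0.91 in granulocytes (adjusted p = 4.9e-08) in the authors' deposited tables. Chek1, a checkpoint kinase gene of S phase, fell in TAM (-2.22, adjusted p = 0.0019 in the authors' deposited table). Hipk1 (0.58, adjusted p = 0.0021) and Hipk2 (0.56, adjusted p = 0.0034), kinases of p53, rose in TAM in the authors' deposited table. Of 12 cofactors and modifying enzymes, 4 rose and 1 fell in TAM (33.3% and 8.33%, against 13.9% and 12.5% of all genes), and none passed in inflammatory monocytes. In granulocytes 1 of them rose and 3 fell (8.33% and 25%, against 7.32% and 9.9% of all genes). The acetyltransferase genes Crebbp (0.64, adjusted p = 0.00012) and Ep300 (0.57, adjusted p = 0.0024) rose in TAM in the authors' deposited table. Pml, a nuclear body scaffold gene, rose in TAM (0.80, adjusted p = 0.0047) and granulocytes (1.13, adjusted p = 0.00028) in the authors' deposited tables. Prmt5, an arginine methyltransferase gene, fell in TAM (-0.88, adjusted p = 6.2e-06) and granulocytes (-0.78, adjusted p = 0.00088) in the authors' deposited tables. Ppp1r13b, a relative of Trp53bp2, fell in granulocytes (-1.20, adjusted p = 0.00047 in the authors' deposited table). Trp53bp2, whose protein directs p53 to death genes, rose in TAM (0.58, adjusted p = 0.027) and fell in granulocytes (-0.76, adjusted p = 0.0087) in the authors' deposited tables. Of 12 turnover factors, 1 rose and 5 fell in TAM (8.33% and 41.7%, against 13.9% and 12.5% of all genes). In inflammatory monocytes 1 fell (8.33%, against 1.77% of all genes), and 3 fell in granulocytes (25%, against 9.9%). Rpl5, a ribosomal protein that binds Mdm2, fell in TAM (-0.95, adjusted p = 1.3e-08) and granulocytes (-0.55, adjusted p = 0.0089) in the authors' deposited tables. Usp10, which removes ubiquitin from p53, fell in TAM (-0.88, adjusted p = 4.6e-05) and granulocytes (-0.78, adjusted p = 0.0029), and Rpl11 fell in TAM (-0.58, adjusted p = 9.4e-05), in the authors' deposited tables. Npm1, a nucleolar protein that also binds Mdm2, fell in all subsets, with -0.88 in TAM (adjusted p = 7.7e-10), -0.45 in inflammatory monocytes (adjusted p = 0.021) and -0.58 in granulocytes (adjusted p = 0.00092) in the authors' deposited tables. Trp63 and Trp73, the paralogues of p53, had no adjusted p-value in any table.

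**Figure D5:**
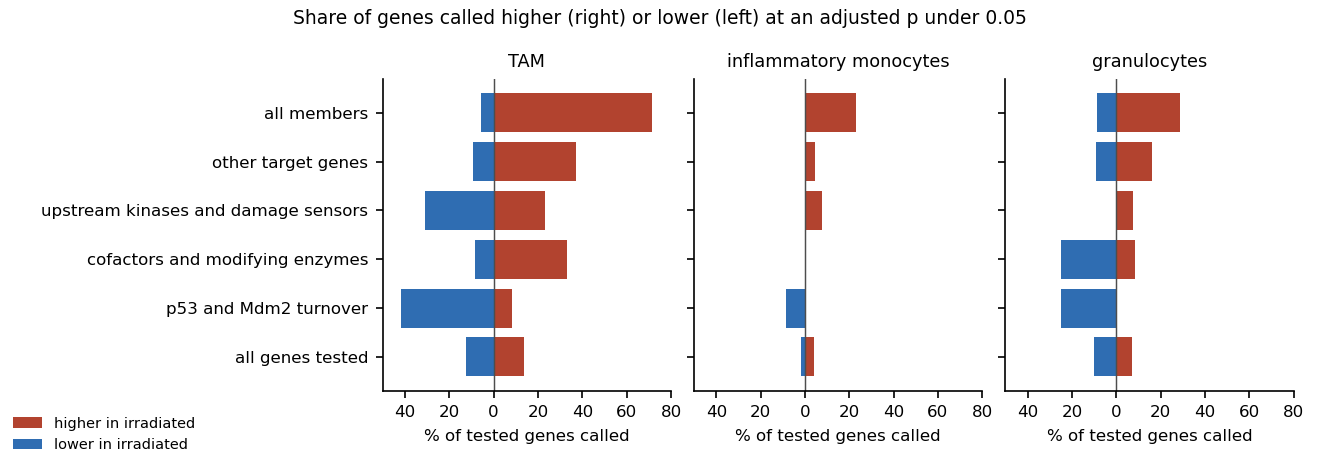
Percent of tested genes called higher (right of 0) or lower (left of 0) at an adjusted p under 0.05, for the 35 members, 4 lists of other pathway genes and all genes tested, in each subset. The share of members called higher was 71.4% for TAM, 22.9% for inflammatory monocytes and 28.6% for granulocytes.

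Some markers of cell types moved in the same comparisons as the members. Of all genes tested, 13.9% rose and 12.5% fell in TAM, 4.13% and 1.77% in inflammatory monocytes, and 7.32% and 9.9% in granulocytes. In TAM, 3 of 10 macrophage markers, 4 of 7 monocyte markers and 4 of 4 tested eosinophil markers rose, and 4 of 7 dendritic cell, 3 of 7 fibroblast and 2 of 8 T and NK cell markers fell. Of 11 neutrophil markers, 9 passed with a Wald statistic above 0, but 4 of these have a negative fold, so their direction is uncertain. In inflammatory monocytes, where Phlda3, Psrc1 and Ccng1 rose, 8 of 10 macrophage markers and 6 of 11 neutrophil markers rose too, with 1.91 for Mertk and 2.77 for S100a8 in the authors' deposited table. There 2 of 4 eosinophil markers, Prg2 (2.82) and Ccr3 (1.88), and 1 of 4 B cell markers rose as well in the authors' deposited table, and no monocyte, dendritic cell, fibroblast or T and NK cell marker passed. In granulocytes 5 of 10 macrophage and 3 of 7 monocyte markers rose, with 1.58 for Mertk and 1.82 for Ly6c2 in the authors' deposited table. There 1 of 11 neutrophil and 1 of 4 eosinophil markers also rose, and 3 of 7 fibroblast markers (-2.14 for Pdgfrb and -2.05 for Col3a1 in the authors' deposited table) and 2 of 8 T and NK cell markers fell. Of the tested epithelial and tumour cell markers, 1 of 9 rose in TAM (Cdh1, 0.99, adjusted p = 0.033), 0 of 8 in inflammatory monocytes and 0 of 9 in granulocytes in the authors' deposited tables. The 11.1% of these markers that rose in TAM and the 9.09% of neutrophil markers that rose in granulocytes are near the shares of all genes. The part of these cell types in the members' changes was not tested.

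The labels do not say how reads were assigned to genes, and the library kit keeps no strand. In the annotation GENCODE M21, exons of 6 members overlap exons of a gene on the other strand, over 26.7% of exonic bases for Ddb2, 19.5% for Gadd45a and at most 5.7% for Ei24, Plk3, Rrm2b and Tigar. Reads of such stretches cannot be told apart.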

How the data were processed

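Per the submitters' processing notes, the tools were STAR 2.7.6a for the build mm39 (GRCm39), fastp 0.20.1, and R 4.0.2 with DESeq2 1.28.1. Which counting tool, annotation and strand setting were used is not given in the sources used here. Per the labels' protocols, picogram amounts of cDNA went into Nextera XT libraries, and such amplification can widen the spread of weakly expressed genes.

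Per the file headers, the authors deposited a mean normalised count (a signal averaged over libraries, identical in the 3 tables), a log2 fold change, a Wald statistic (a score), and a raw and an adjusted p-value per gene. The authors' log2 fold changes may be shrunken. No member differs in sign between fold and Wald statistic. Of all genes tested, 320 of 16851 differ in TAM, 136 of 14506 in inflammatory monocytes and 146 of 15679 in granulocytes. Of called genes, 16 of 4448 differ in TAM, 3 of 856 in inflammatory monocytes and 0 of 2699 in granulocytes. Differing signs are thus rare, and their absence among the members does not show whether the members' folds are shrunken.

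Calls use the adjusted p that the authors deposited from DESeq2, across all genes. Differences between subsets were tested, by a choice made after the tables were seen, with the fold over the Wald statistic as standard error. The test was run where these standard errors agreed within a factor of 1.25 and folds were at least 0.01, with Benjamini-Hochberg adjustment over all such genes. For genes whose mean count reached 200, the ratio of these standard errors had medians of 1.02 to 1.08. All 35 members are accounted for, and each list of other pathway genes is named by its up to 4 called genes of smallest p per comparison, marker lists by up to 3. The granulocyte value of Btg1, the TAM value of Trp53bp2, and the TAM and inflammatory monocyte values of Bax were added after they were seen. The test was tried on simulated folds. Members and lists were chosen with earlier results of these data known. Python 3.11.15, pandas 2.3.3, numpy 2.4.6, matplotlib 3.10.9 and scipy 1.17.1 were used. Alternatives changed thresholds, count filters, adjustment, null spread, centring and motif strictness.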

Additional observations from a re-analysis of the deposited data

Results flagged for a closer look

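The following members had effects of irradiation that differed between subsets, by the test of the difference of 2 log2 folds (adjusted p under 0.05 over all genes), given as TAM minus the other subset. Against inflammatory monocytes, the differences were 1.70 for Sesn2, 1.40 for Mdm2, 1.35 for Trp53inp1, 1.25 for Gadd45a, 1.22 for Btg2, 0.66 for Apaf1 and -1.06 for Sesn1. Against granulocytes, they were 2.30 for Sesn2, 2.16 for Trp53inp1, 2.11 for Btg2, 1.83 for Gadd45a, 1.67 for Mdm2, 1.56 for Plk3, 1.40 for Mdm4, 1.07 for Fas, 0.66 for Apaf1 and -0.61 for Trp53. For Plk3, inflammatory monocytes minus granulocytes gave 1.27. No group of samples was examined for a library far from the others, because only the authors' summaries over libraries were used.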

How the results depend on the processing

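Division of the Wald statistics by their own robust SD (2.11 for TAM, 1.48 for inflammatory monocytes, 1.81 for granulocytes) left 4 higher members in TAM (Mdm2, Trp53inp1, Ccng1 and Phlda3, of 44 higher genes in all) and 0 lower, 1 in inflammatory monocytes (Phlda3, of 27) and 0 higher and 0 lower in granulocytes (of 8 and 5). A required absolute log2 fold change of at least 1 left 16 higher and 0 lower in TAM, and 0 lower in granulocytes. Of all genes, this rule left 903 higher and 754 lower in TAM, 292 and 68 in inflammatory monocytes, and 413 and 745 in granulocytes. An adjusted p under 0.01 left 1 lower member in TAM, 5 higher in inflammatory monocytes and 1 lower in granulocytes (Plk3). Of all genes, it left 1423 lower in TAM, 277 higher and 92 lower in inflammatory monocytes, and 849 lower in granulocytes. Adjustment over all p-values, low counts included, left 1 lower in TAM (of 1804 lower genes in all), where Sesn1, Ppm1d and Xpc were lost. In granulocytes it lost Abhd4, Triap1 and Btg2. Re-centring, chosen after seeing the data, lost Ppm1d and Xpc in TAM and Btg2 in granulocytes. Every other count of called members stayed within 1.5 times its value, and no member changed direction. For other pathway genes, a required absolute log2 fold change of 1 left 6 higher and 4 lower in TAM in place of 24 and 14, 1 higher and 0 lower in inflammatory monocytes in place of 3 and 1, and 2 higher and 3 lower in granulocytes in place of 9 and 10. An adjusted p under 0.01 left 8 lower in TAM and 0 lower in inflammatory monocytes, and one under 0.10 gave 2 lower in inflammatory monocytes. With 1 mismatch allowed, 19 of 28 members held the promoter decamer in place of 10, against 54.2% of all genes. Differences between subsets gave 8, 10 and 1 members with a mean count of at least 50 and 7, 9 and 1 with standard errors within a factor of 1.1, in place of 7, 10 and 1. Between TAM and inflammatory monocytes, Mdm4 was gained under both, and the narrower factor left Gadd45a untested there and Fas untested against granulocytes, so their differences were lost. The cause of these changes was not tested, beyond the fewer genes that stricter rules leave. No paired analysis was possible because untreated and irradiated libraries share no tumour number and only summaries over libraries were used, which also kept any replicate from being left out. The depth of the libraries is unknown, and Eda2r, Perp, Tnfrsf10b and Ddb2 have mean counts under 50.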
